A study of Oryza sativa with 4 samples.

Results

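MYB and MYB-related factors were followed in whole rice plants that overexpress OsC3H10, a CCCH zinc finger gene. A gene was taken as a member when its annotation in the deposited table holds the word Myb, alone or as the start of a word, and the Myb-annotated transcript with the highest mean level stood for it. This gave 109 genes of the 31414 listed, with 122 Myb-annotated transcripts. A further gene with a Myb annotation was left out by the rule, and 67 genes annotated as SANT or homeodomain-like without the word Myb are not members, so the list does not hold every rice gene with this fold. RNA came from OsC3H10OX plants of line 20 in the T4 generation, which the labels call PGD1::OsTZF8 and in which the PGD1 promoter drives the gene throughout the plant, and from non-transgenic (NT) plants. Both groups were 3-week-old, soil-grown and untreated plants of cv. Nakdong, with 2 libraries each, called replicates 1 and 2. The OsC3H10OX group is a single transgenic line, and OsC3H10 itself was not analysed here. The 2 NT libraries carry a number that may be a year in their descriptions, which the OsC3H10OX libraries lack, so a difference in growth or sequencing date between the groups cannot be told apart from the genotype.

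MYB proteins bind DNA through repeats of a short helical domain that carries regularly spaced tryptophans. In plants the R2R3 type, with a pair of repeats, is a large family whose members control phenylpropanoid and flavonoid synthesis, secondary wall formation, cell shape, anther development and responses to drought and abscisic acid. Proteins with a single repeat, the MYB-related factors, include regulators of the circadian clock and of sugar-regulated amylase genes, the MYB-CC factors that act in phosphate starvation, and telomere-binding histone-like proteins. The related SANT domain occurs in chromatin proteins and in proteins of transposon origin.

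Most members were present at levels like those of other genes. Levels are given in FPKM, the number of sequenced fragments scaled to transcript length and library size. The median member had 5.57 and 6.15 FPKM in the OsC3H10OX libraries and 6.03 and 5.65 FPKM in the NT libraries. Over all genes the medians were 6.52 and 6.23 FPKM in OsC3H10OX and 6.26 and 6.44 FPKM in NT. Of the 109 members 42 averaged over 10 FPKM and 19 under 1 FPKM. Limma was fitted to the authors' normalized log2 values of the 30449 transcripts that reached 1 FPKM in 2 or more libraries, among them those of 91 members, and a transcript was called when its Benjamini-Hochberg (BH) adjusted p was under 0.05. Log2 differences are OsC3H10OX minus NT on the log2(FPKM + 1) scale, which understates differences of low transcripts. For a single gene the exact permutation p has a floor of 0.333 with 2 libraries a group, and limma instead draws on the spread of all transcripts.

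A single member passed the test. Os08g0496700, on chromosome 8 from 24528147 to 24529130 (IRGSP-1.0), was higher in OsC3H10OX. Its annotation gives a Myb/SANT-like domain and no function. It had 8.16 and 9.90 FPKM in the OsC3H10OX libraries, against 1.14 and 0.967 FPKM in the NT libraries. The groups lay far apart, and the gap between libraries of a group was small beside the gap between groups. The means were 9.03 ± 1.23 FPKM (SD, n = 2) in OsC3H10OX and 1.06 ± 0.125 FPKM in NT, which is 8.56-fold. The log2 difference was 2.29 with a 95% interval of 1.87 to 2.70 (adjusted p = 0.0188, limma, BH). The level rested on about 237 and 266 fragments in OsC3H10OX and 30.0 and 39.0 in NT, as inferred from the steps of low FPKM values. The log2 difference stayed between 2.14 and 2.43 with each of the 4 libraries left out in turn. The call did not hold without NT replicate 1 or without NT replicate 2. In those fits NT has a single library, and calls over all transcripts also became fewer.

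**Figure D1:**
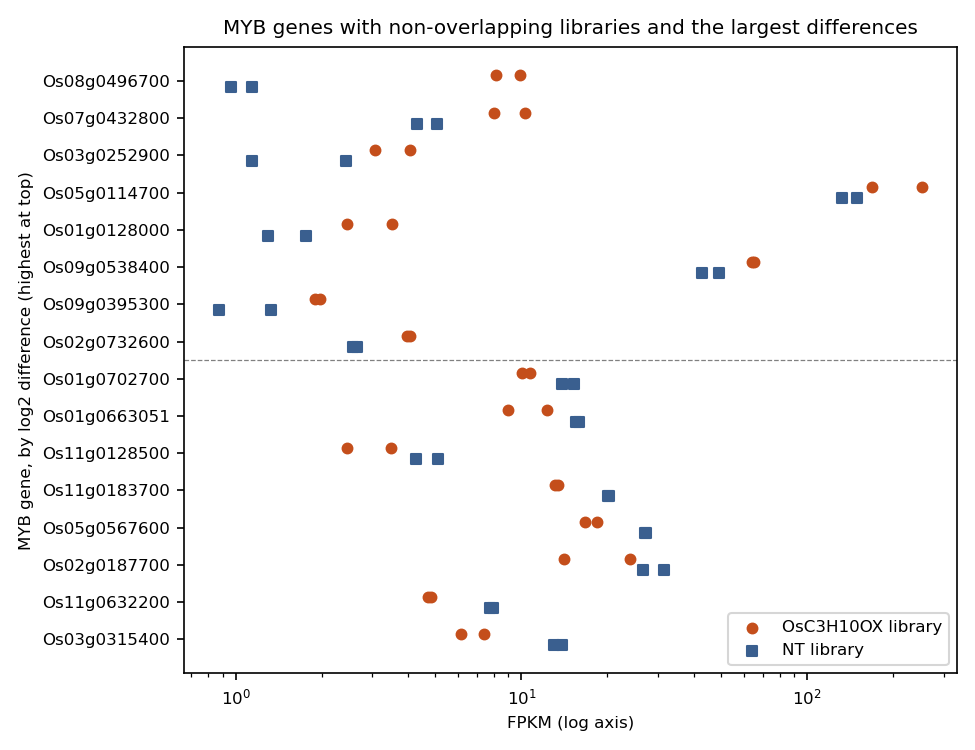
FPKM in each library (log axis) of the 16 MYB genes with the largest log2 differences in each direction among those whose libraries do not overlap. Circles are the 2 OsC3H10OX libraries and squares the 2 NT libraries. The gap of Os08g0496700, at 8.16 and 9.90 FPKM against 1.14 and 0.967 FPKM, is the widest shown.

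The call of 1 higher and 0 lower among 91 members, or 1.1%, stands beside 1.49% of all tested transcripts called in either direction, 0.647% higher and 0.841% lower. With 1 transcript per gene, as for the members, 1.56% of 25882 tested genes were called, 0.695% higher and 0.869% lower. The share of MYB members called was thus near that of the whole table. At an unadjusted p under 0.05 (limma), 17.7% of all tested transcripts passed (8.35% higher and 9.36% lower), with every transcript of a gene counted. With FPKM summed per gene, 19.8% of 25954 genes and 26.9% of 93 members passed. With 1 transcript each, 11 members were higher and 13 lower, which is 26.4% of 91. This share was 29.7% without OsC3H10OX replicate 1 and also without OsC3H10OX replicate 2, 8.79% without NT replicate 1 and 12.1% without NT replicate 2. Over all transcripts it was 19.5% without OsC3H10OX replicate 1, 25% without OsC3H10OX replicate 2, 10.9% without NT replicate 1 and 8.17% without NT replicate 2.

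The differences of the members centred close to zero. The median log2 difference was 0.05, with 54 members above zero and 37 below, and the median over all tested genes was under 0.001. The middle of the distribution ran from -0.19 to 0.25 between quartiles for the members and from -0.18 to 0.17 for all tested genes. The OsC3H10OX libraries stood wholly above the NT libraries in 28 members (30.8%) and wholly below in 21 (23.1%), beside 25.1% and 28.1% of all tested transcripts (53.8% of members and 53.2% of transcripts in either direction). Of the 91 members 81 (89%) lay within 1.5-fold in either direction, as did 89.3% of all tested transcripts. On the log2(FPKM + 1) scale of the fit, Os08g0496700 was the only tested member past 2-fold, a size reached upwards by 2.15% and downwards by 1.88% of all tested transcripts. By the ratio of mean FPKM, Os03g0252900 also reached 2.004-fold, without a call.

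**Figure D2:**
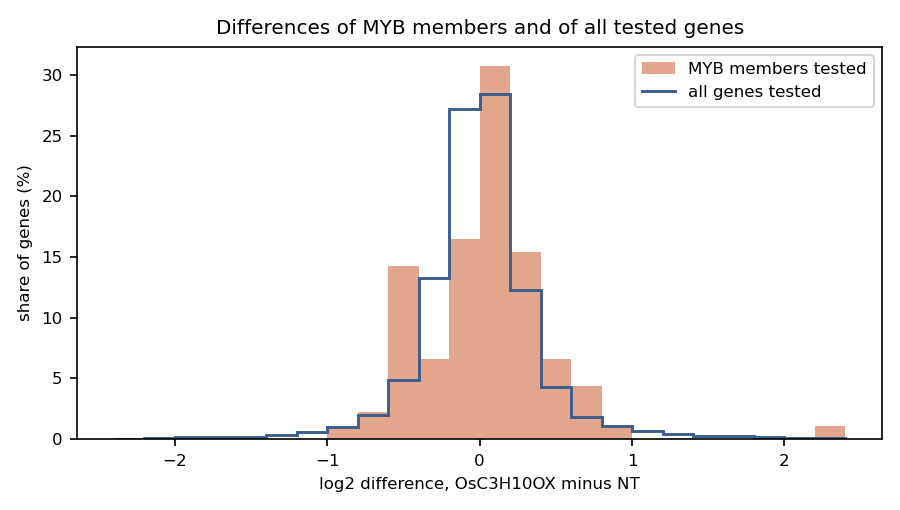
Share of genes (%) in bins of 0.2 of the log2 difference, OsC3H10OX minus NT. The filled area is the 91 tested MYB members and the line the 25882 tested genes, of which 120 (0.464%) lie outside the axis. The members' shares centre near zero. Between -0.6 and -0.4 lie 14.3% of members, against 4.84% of all tested genes, and between 0.4 and 0.6 lie 6.59%, against 4.26%. These differences in share were not tested. The separate bin on the right holds Os08g0496700.

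Among proteins of the Myb/SANT group, to which Os08g0496700 belongs by annotation, no other member was called. The group has 12 members, 10 of them tested, with 6 above zero and 4 below. At an unadjusted p under 0.05 (limma) 2 were higher, Os08g0496700 among them, and 4 lower, beside 8.35% and 9.36% of all tested transcripts. Os11g0632200 had 4.71 and 4.82 FPKM in OsC3H10OX, against 7.75 and 7.95 FPKM in NT (log2 difference -0.61, adjusted p = 0.102, limma, BH). Os05g0567600 had 18.3 and 16.7 FPKM in OsC3H10OX, against 27.0 and 27.4 FPKM in NT (log2 difference -0.59, adjusted p = 0.0946, limma, BH). Both were lower in each OsC3H10OX library and neither passed the test. Os01g0663051, annotated like Os05g0567600 as similar to a SANT/MYB protein, had 8.96 and 12.3 FPKM in OsC3H10OX and 15.6 and 15.9 FPKM in NT, with an adjusted p of 0.251 (limma, BH). The median log2 difference of the 10 was 0.06.

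The R2R3 group holds only members whose annotation names the paired repeat type, and others of this type may stand in other groups. It has 20 members of which 16 were tested. None was called, and the median log2 difference was 0.09. At an unadjusted p under 0.05 (limma) 3 were higher and 2 lower, beside 8.35% and 9.36% of all tested transcripts. Os03g0315400, similar to a P-type R2R3 protein, came nearest to a call among lower members. It had 7.40 and 6.15 FPKM in OsC3H10OX, against 13.0 and 13.8 FPKM in NT. The groups were well separated, the log2 difference was -0.88 (95% interval -1.20 to -0.57), and the adjusted p was 0.0630 (limma, BH). When FPKM was summed per gene before the fit, it was called lower (adjusted p = 0.0401, limma). In the other direction, Os07g0432800 had 10.3 and 8.02 FPKM in OsC3H10OX, against 4.32 and 5.06 FPKM in NT (log2 difference 0.84, adjusted p = 0.107, limma, BH). Os09g0538400, the member of this group with the highest level, had 64.3 and 65.1 FPKM in OsC3H10OX and 43.0 and 49.3 FPKM in NT. Its libraries did not overlap, and its log2 difference of 0.54 was not called (adjusted p = 0.129, limma, BH). Os02g0732600 had 3.98 and 4.07 FPKM in OsC3H10OX, against 2.67 and 2.58 FPKM in NT (adjusted p = 0.180, limma, BH). Os01g0274800, annotated with sugar partitioning into the anther, was low in these vegetative plants, at 1.94 and 1.05 FPKM in OsC3H10OX and 0.958 and 1.35 FPKM in NT, and its groups overlapped.

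**Figure D3:**
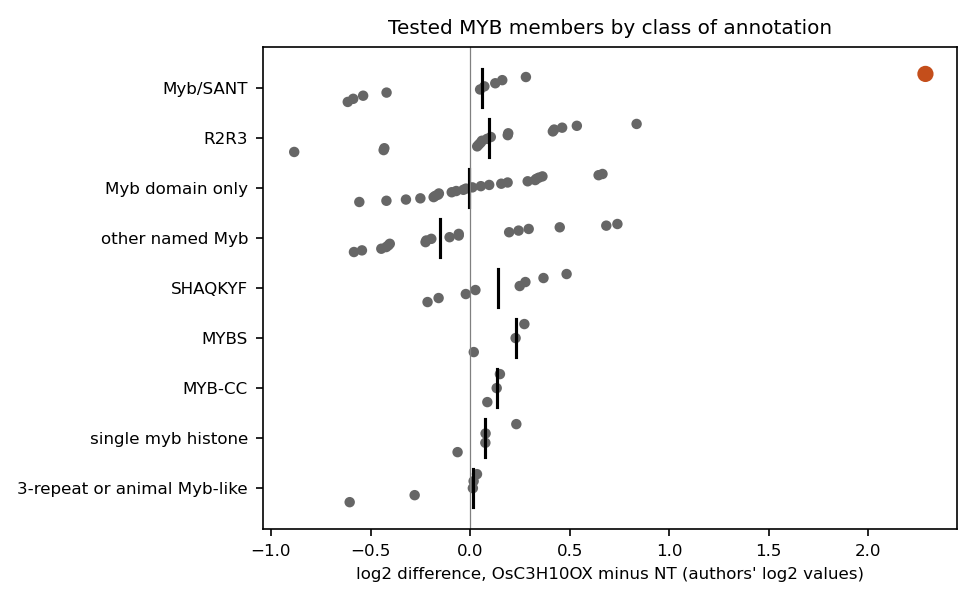
Log2 difference (OsC3H10OX minus NT, authors' log2 values) of the 91 tested MYB members, 1 point each, by class of annotation. Vertical bars are class medians and the large orange point is Os08g0496700, the single call, at 2.29. The other 90 points lie between -0.88 and 0.84.

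The members with the highest levels were Os05g0114700 and Os01g0975300. Os05g0114700, annotated with a Myb-type helix-turn-helix domain, had 252 and 169 FPKM in OsC3H10OX, against 133 and 149.9 FPKM in NT. The groups did not overlap, but replicate 1 of OsC3H10OX stood well above replicate 2, and the log2 difference of 0.66 was not called (adjusted p = 0.265, limma, BH). Its log2 difference was 0.98 without OsC3H10OX replicate 2 and 0.35 without OsC3H10OX replicate 1. Os01g0975300, similar to a Myb factor protein, had 239 and 95.7 FPKM in OsC3H10OX and 88.2 and 111 FPKM in NT. Its groups overlapped, since only OsC3H10OX replicate 1 stood apart, and the interval of its log2 difference ran from -0.57 to 1.93. Os05g0140100, with a Myb domain annotation, had 31.6 and 31.7 FPKM in OsC3H10OX and 38.2 and 35.1 FPKM in NT (log2 difference -0.18, adjusted p = 0.398, limma, BH).

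Spread between the OsC3H10OX libraries was larger than between the NT libraries in 58 of the 91 members (63.7%), near the 62.5% of all tested genes. A gap of more than 0.5 on the log2 scale separated the OsC3H10OX libraries in 14 members and the NT libraries in 2. Over the tested members (genes of a plant do not vary independently), the log2 values had a Pearson correlation of 0.969 between the OsC3H10OX libraries, 0.990 between the NT libraries and 0.942 to 0.950 across groups.

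The 3 MYB-CC genes belong to the family of phosphate starvation regulators. Os07g0438800 had 32.9 and 34.3 FPKM in OsC3H10OX, against 31.4 and 30.6 FPKM in NT (log2 difference 0.13, 95% interval -0.11 to 0.38). Os03g0329900 had 22.3 and 23.8 FPKM in OsC3H10OX and 22.7 and 19.2 FPKM in NT, and Os09g0299200 had 25.6 and 24.9 FPKM in OsC3H10OX and 24.9 and 23.4 FPKM in NT. The groups overlapped in Os03g0329900 and Os09g0299200. The upper limits of the 3 intervals were 0.34 to 0.49, so differences of 2-fold lay outside them.

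MYBS factors bind the TATCCA element of sugar-repressed alpha-amylase promoters. Os10g0561400, similar to MYBS3, had 33.5 and 33.4 FPKM in OsC3H10OX, against 28.1 and 27.9 FPKM in NT (log2 difference 0.27, adjusted p = 0.244, limma, BH). Os01g0187900, similar to MYBS2, had 18.2 and 18.04 FPKM in OsC3H10OX, against 15.6 and 15.3 FPKM in NT (log2 difference 0.23, adjusted p = 0.306, limma, BH). Libraries of each group lay close together in both genes, and neither difference was called. Os05g0195700, also similar to MYBS2, had 14.9 and 23.3 FPKM in OsC3H10OX and 18.2 and 18.8 FPKM in NT, which overlapped. Os10g0562100 was not tested, with 0.640 to 0.925 FPKM over the 4 libraries in its Myb-annotated transcript. Its other listed transcript, annotated as homeodomain-like, had 58.1 and 86.5 FPKM in OsC3H10OX and 75.9 and 73.7 FPKM in NT, so the level of this gene is not that of the transcript the annotation word picked.

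The 4 single myb histone genes, named after maize proteins that bind telomeric DNA, ranged from 12.1 to 38.7 FPKM in mean level. Os01g0708000, with the highest level of these, had 38.8 and 39.9 FPKM in OsC3H10OX and 37.96 and 38.3 FPKM in NT (log2 difference 0.08, 95% interval -0.16 to 0.31). The log2 differences of Os01g0589300, Os12g0613300 and Os02g0776700 were -0.06, 0.08 and 0.23, and none was called (adjusted p 0.382 to 0.813, limma, BH). Another Myb-annotated transcript of Os02g0776700 went the other way, at 9.85 and 9.92 FPKM in OsC3H10OX and 11.7 and 11.5 FPKM in NT (log2 difference -0.20). Another of Os12g0613300 had a log2 difference of 0.33. Proteins with 3 repeats act in the cell cycle in plants and animals. Of the genes named next only Os01g0841500 is annotated with 3 repeats. The others were grouped with it by likeness to animal Myb proteins, which does not give their number of repeats. Os01g0841500, an R1R2R3 factor annotated with stress tolerance, had 11.4 and 10.9 FPKM in OsC3H10OX and 11.3 and 10.97 FPKM in NT, a log2 difference of 0.01 with a 95% interval of -0.25 to 0.28. Os07g0627300, similar to the animal B-Myb, had 11.3 and 12.7 FPKM in OsC3H10OX and 11.4 and 12.1 FPKM in NT. Os02g0187700, also similar to B-Myb, had 23.9 and 14.1 FPKM in OsC3H10OX and 26.7 and 31.5 FPKM in NT. Its libraries did not overlap, but those of OsC3H10OX were far apart, and the adjusted p was 0.345 (limma, BH). Os09g0106700, similar to c-Myb, had 24.7 and 19.2 FPKM in OsC3H10OX and 27.7 and 26.6 FPKM in NT (adjusted p = 0.404, limma, BH).

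The SHAQKYF class, named for a motif in the single repeat of many MYB-related factors, has 8 members, all tested and none called, with a median log2 difference of 0.14. Os09g0395300 had 1.89 and 1.97 FPKM in OsC3H10OX, against 0.878 and 1.33 FPKM in NT (log2 difference 0.48, adjusted p = 0.225, limma, BH). Os01g0176700 and Os02g0696900 had log2 differences of 0.28 and 0.25, with OsC3H10OX above NT in each library and adjusted p of 0.314 and 0.365 (limma, BH).

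The remaining members carry only a Myb domain in their annotation (27 genes, 24 tested) or a likeness to another named Myb protein (26 genes, 18 tested). None of these was called. In the domain group 4 members were higher and 2 lower at an unadjusted p under 0.05 (limma), beside 8.35% and 9.36% of all tested transcripts. Os11g0183700, of the domain group, had 13.1 and 13.4 FPKM in OsC3H10OX, against 20.1 and 20.3 FPKM in NT. The libraries of each group nearly coincided, and the log2 difference of -0.56 had an adjusted p of 0.0942 (limma, BH). Os01g0128000 had 3.51 and 2.46 FPKM in OsC3H10OX, against 1.30 and 1.77 FPKM in NT (log2 difference 0.65, adjusted p = 0.194, limma, BH). Os03g0241100 had 24.7 and 26.4 FPKM in OsC3H10OX, against 21.1 and 18.9 FPKM in NT (log2 difference 0.36, adjusted p = 0.225, limma, BH). Its other listed transcripts, at lower levels, had log2 differences of -0.58 and 1.56 and were not called. In the group named by likeness, 6 members lay above zero and 12 below, with a median of -0.15 and 5 lower at an unadjusted p under 0.05, beside 9.36% of all tested transcripts. Os01g0702700, similar to MYB86 of Arabidopsis, had 10.04 and 10.7 FPKM in OsC3H10OX, against 13.9 and 15.2 FPKM in NT (log2 difference -0.45, adjusted p = 0.177, limma, BH). Os05g0429900, Os05g0543600 and Os11g0128500 had log2 differences of -0.42, -0.40 and -0.54, each with OsC3H10OX below NT in every library and adjusted p from 0.227 to 0.269 (limma, BH). Os03g0252900, similar to DIVARICATA, a factor of flower asymmetry in snapdragon, had 3.09 and 4.09 FPKM in OsC3H10OX, against 1.14 and 2.44 FPKM in NT, on a transcript of 391 nt (adjusted p = 0.284, limma, BH). Os11g0700500, annotated as a homolog of a snapdragon myb protein, overlapped between groups at 32.4 and 27.0 FPKM in OsC3H10OX and 30.9 and 31.9 FPKM in NT.

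No member was switched on or off between groups, taken as 5 FPKM or more throughout one group and less than 0.5 FPKM throughout the other. Among the 18 members too low to be tested, some did not overlap between groups, as did 53.2% of all tested transcripts. That share is of transcripts that passed the filter, so the sets are unlike. Some of these members rest on few fragments, such as Os03g0578900 with about 4.00 and 4.01 in OsC3H10OX and 2.01 and 2.99 in NT. OsC3H10OX lay above NT in Os03g0578900, Os04g0593200, Os05g0132700, Os06g0221000, Os07g0558100 and Os12g0564100. It lay below NT in Os01g0298400, Os02g0618400 and Os02g0813200. Os12g0564100 had 1.58 and 0.651 FPKM in OsC3H10OX, against 0.269 and 0.318 FPKM in NT. Os01g0298400 had 0.0797 and 0.144 FPKM in OsC3H10OX, against 0.353 and 0.460 FPKM in NT, which are about 3.00 and 5.01 fragments in OsC3H10OX and 12.0 and 23.9 in NT. Os02g0618400, annotated with the same snapdragon protein, had 0.569 and 0.594 FPKM in OsC3H10OX and 0.990 and 1.01 FPKM in NT. Fragments numbered about 137 and 52.1 in OsC3H10OX and 21.1 and 37.8 in NT for Os12g0564100. None of these differences was tested. Os08g0346400 entered through a short transcript of 397 nt with under 0.5 FPKM in every library, while another transcript of the gene, annotated as a phosphate starvation regulator, had 27.6 and 28.6 FPKM in OsC3H10OX and 22.5 and 24.2 FPKM in NT.

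More than 1 transcript is listed for 16 members. For Os08g0151300 the transcript kept had 4.21 and 2.03 FPKM in OsC3H10OX and 5.84 and 2.56 FPKM in NT, and the other had 0.427 and 3.15 FPKM in OsC3H10OX and 0.472 and 3.01 FPKM in NT. In both groups replicate 1 was high in the transcript kept and low in the other. For Os02g0695200 the transcript not kept had 0.181 and 1.19 FPKM in OsC3H10OX and was near zero in both NT libraries, while the transcript kept had 1.43 and 1.32 FPKM in OsC3H10OX and 1.25 and 1.34 FPKM in NT. No other transcript of a member gene was called when all 106 tested transcripts of these genes were counted.

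Along the chromosomes, Os08g0496700 stood alone. None of the 10 tested genes on either side of it was called, and their log2 differences ran from -0.54 to 0.42. Os08g0496600 on one side had 1.58 and 2.10 FPKM in OsC3H10OX and 2.75 and 3.46 FPKM in NT, and Os08g0496900 on the other had 31.4 and 32.2 FPKM in OsC3H10OX and 31.4 and 26.9 FPKM in NT. At least 1 of the 20 nearest tested genes was called for 21 of the 91 members (23.1%), beside 21.5% of all tested genes, and at least 2 for 11 members (12.1%), beside 6.07%. The difference between these shares was not tested. Os07g0432800 lies next to a row of 5 thionin-like genes, which encode small antimicrobial peptides. The nearest, Os07g0432333, had 35.9 and 39.7 FPKM in OsC3H10OX, against 1.08 and 1.43 FPKM in NT (log2 difference 4.13, adjusted p = 0.00334, limma, BH). The other 4 had log2 differences of 1.20 to 2.03 and were not called, and such similar genes may share reads, which leaves their values uncertain. Os11g0183700 had 4 called genes among its 20 neighbours, 2 higher and 2 lower. The ankyrin repeat gene Os11g0182900 had 20.3 and 10.8 FPKM in OsC3H10OX, against 0.341 and 0.118 FPKM in NT, and the next ankyrin repeat gene, Os11g0182500, had 0.0327 and 0.0354 FPKM in OsC3H10OX, against 26.1 and 27.3 FPKM in NT. These adjacent genes, which share an annotation, were thus called in opposite directions (log2 differences 3.70 and -4.73, adjusted p = 0.0270 and 0.00239, limma, BH). These last 2 neighbourhoods were chosen after their values were seen. The member with the most called neighbours was Os11g0700500, with 5 of 20.

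**Figure D4:**
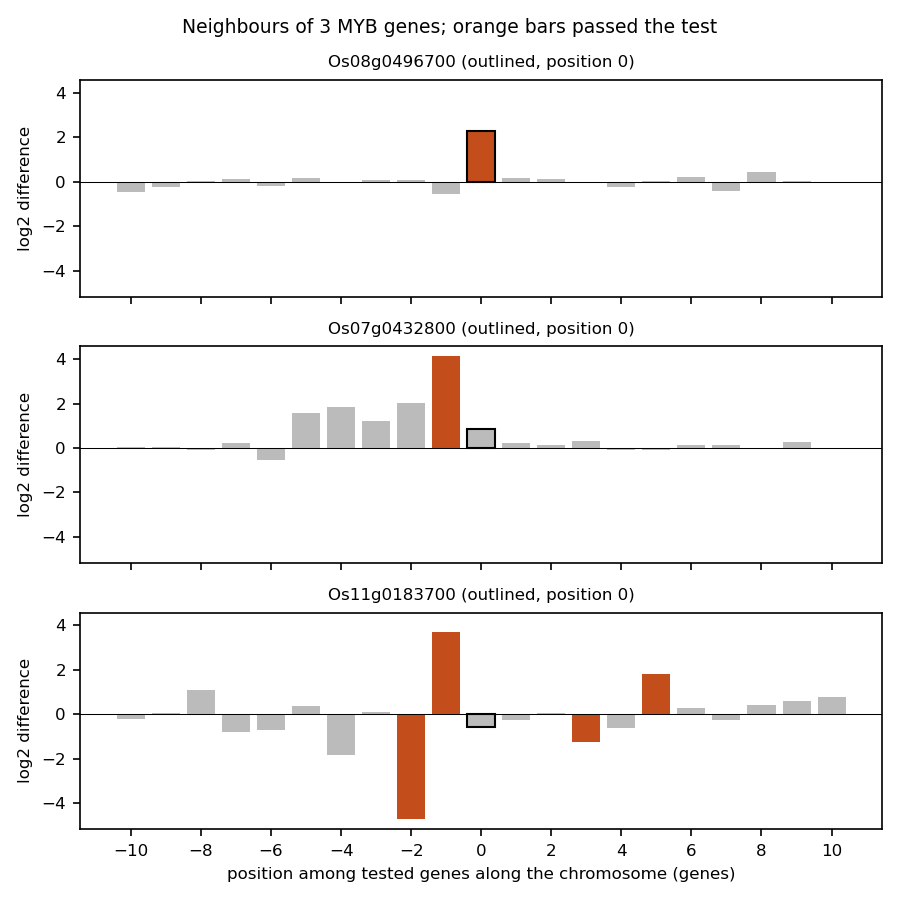
Log2 difference (OsC3H10OX minus NT) of the 10 tested genes on each side of 3 MYB genes, by position along the chromosome. Outlined bars are the MYB genes and orange bars passed the test. No neighbour of Os08g0496700 was called, against 1 for Os07g0432800 and 4 for Os11g0183700. The highest count of any member, 5 for Os11g0700500, is not shown.

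Genes that act with or downstream of MYB factors in other work were counted from lists set by annotation words. Of 58 tested phenylpropanoid and lignin genes 3 were called higher and none lower (5.17%, against 1.49% of all tested transcripts). At an unadjusted p under 0.05 (limma) 14 were higher and 10 lower, beside 8.35% and 9.36% of all tested transcripts. Os09g0400100, similar to cinnamyl alcohol dehydrogenase, which makes monolignols, had 39.6 and 37.3 FPKM in OsC3H10OX, against 10.1 and 11.6 FPKM in NT (log2 difference 1.77, adjusted p = 0.0151, limma, BH). Os09g0400000, annotated with the same enzyme, spans a stretch of chromosome 9 that holds all of Os09g0400100, so the pair may share reads, and the 3 calls fall at 2 places in the genome. It had 20.7 and 21.96 FPKM in OsC3H10OX, against 10.3 and 11.2 FPKM in NT (log2 difference 0.95, adjusted p = 0.0401, limma, BH). Os12g0257600, similar to laccase-25, of the family that couples monolignols in the wall, had 18.3 and 9.86 FPKM in OsC3H10OX, against 0.702 and 0.876 FPKM in NT (log2 difference 3.03, adjusted p = 0.0348, limma, BH). The median of the list was 0.07. The 3 calls did not hold without NT replicate 1 or without NT replicate 2, where calls over all transcripts also became fewer. The MYB member Os09g0401000 lies near the cinnamyl alcohol dehydrogenase genes and had 2.02 and 1.09 FPKM in OsC3H10OX and 0.827 and 1.30 FPKM in NT (adjusted p = 0.517, limma, BH).

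In the flavonoid list none of 33 tested genes was called, with 4 higher and 4 lower at an unadjusted p under 0.05 (limma). At that unadjusted p, 8.35% of all tested transcripts were higher and 9.36% lower. Os04g0581000, similar to flavanone 3-hydroxylase, had 3.35 and 2.78 FPKM in OsC3H10OX, against 1.08 and 1.12 FPKM in NT (log2 difference 0.94, adjusted p = 0.0578, limma, BH). Os03g0289800, similar to a leucoanthocyanidin dioxygenase, had 1.998 and 1.03 FPKM in OsC3H10OX, against 0.251 and 0.223 FPKM in NT (log2 difference 0.98, adjusted p = 0.140, limma, BH). None of 23 tested cellulose synthase genes was called. At an unadjusted p under 0.05 (limma) 1 was higher and 5 lower, beside 8.35% and 9.36% of all tested transcripts. Os07g0252400, similar to cellulose synthase-8, had 53.0 and 52.7 FPKM in OsC3H10OX, against 90.9 and 83.2 FPKM in NT (log2 difference -0.64, adjusted p = 0.0819, limma, BH), and Os09g0478100, of the cellulose synthase-like E type, had 14.8 and 16.95 FPKM in OsC3H10OX, against 9.89 and 9.13 FPKM in NT (adjusted p = 0.106, limma, BH).

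Of 7 genes found by the alpha-amylase words 3 were tested and none called, with 1 higher at an unadjusted p under 0.05 (limma). The gene past that unadjusted p, Os03g0661600, is an inhibitor of alpha-amylase and trypsin rather than an amylase, with 46.7 and 15.5 FPKM in OsC3H10OX and 6.53 and 6.69 FPKM in NT (adjusted p = 0.207, limma, BH). The amylase isozyme gene Os06g0713800 had 3.27 and 1.55 FPKM in OsC3H10OX and 1.55 and 1.54 FPKM in NT (adjusted p = 0.494, limma, BH). Among 22 tested genes of the phosphate starvation list, made of SPX proteins, phosphate transporters and purple acid phosphatases, none was called. At an unadjusted p under 0.05 (limma) 3 were higher and 2 lower, beside 8.35% and 9.36% of all tested transcripts. Os09g0454600, similar to a mitochondrial phosphate transporter, and the SPX gene Os03g0827500 had the smallest p, with log2 differences of 0.67 and -0.49. Of 39 tested bHLH genes, which include partners of R2R3 factors, Os03g0741100 was called lower, at 10.7 and 9.72 FPKM in OsC3H10OX, against 25.9 and 33.6 FPKM in NT (log2 difference -1.44, adjusted p = 0.0404, limma, BH). This is 2.56% of the list, beside 0.841% of all tested transcripts called lower. This call did not hold with any of the 4 libraries left out, each of which leaves a group with a single library. Without an NT library, calls over all transcripts also became fewer. At an unadjusted p under 0.05 (limma) 3 bHLH genes were higher and 9 lower, beside 8.35% and 9.36% of all tested transcripts. Os06g0653200, also bHLH, had 2.51 and 2.09 FPKM in OsC3H10OX, against 4.36 and 4.29 FPKM in NT (log2 difference -0.70, adjusted p = 0.0949, limma, BH).

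Markers of leaf and root were both present in these whole plants, and in some of them the libraries of the groups did not overlap. The sum over 14 chlorophyll a/b-binding genes was 9362 and 10490 FPKM in OsC3H10OX, against 8232 and 8199 FPKM in NT. The Rubisco small chain gene found by the same kind of words had 736 and 763 FPKM in OsC3H10OX and 413 and 285 FPKM in NT. The root gene RCc3 (Os02g0662000) had 265 and 272 FPKM in OsC3H10OX, against 392 and 389.7 FPKM in NT, and the sum of 3 root-specific genes was 45.3 and 37.99 FPKM in OsC3H10OX, against 50.1 and 50.5 FPKM in NT. The sum of 3 genes of high-affinity nitrate transport overlapped, at 56.8 and 76.8 FPKM in OsC3H10OX and 48.6 and 59.0 FPKM in NT. In RNA of whole plants a smaller share of an organ and less RNA of a gene within it cannot be told apart, and the part of organ make-up in the MYB values was not tested.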

How the data were processed

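Whole-plant RNA of OsC3H10OX and NT (2 libraries each, biological replicates by the methods) was sequenced as single-end reads. The authors trimmed with Trimmomatic 0.32, mapped with TopHat to IRGSP-1.0 (RAP-DB annotation) and deposited FPKM per transcript and library. The FPKM tool is not given in the sources used here. The deposited log2 values of the authors are, by a check, log2(FPKM + 1) quantile-normalized over the 4 libraries (sorted values differ by at most 0.00178). The table's columns of fold changes and p-values were not used. File starts count from 0 and were raised by 1 for printing.

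Limma 3.58.1 (R 4.3.3) with the trend option of eBayes and BH adjustment was fitted to the authors' log2 values of 30449 transcripts reaching 1 FPKM in 2 or more libraries. Members, lists and tests were chosen with earlier results of these data known. The fit was tested on a single draw of simulated data of the same size (30449 transcripts, OsC3H10OX against NT), with 200 transcripts changed. It recovered 10% of seeded log2 changes of 1, 74% of those of 2, 88% of those of 3 and 92% of those of 4. Recovery depends on how many transcripts change, which is not known for the real data. Depth came from the even steps of low FPKM values. A value of 1 FPKM equalled 41.0 and 37.9 fragments per kilobase (OsC3H10OX) and 37.1 and 56.1 (NT), on lengths shortened by 170 to 180 nt, with 91.1% to 92.2% of low values whole within 0.05.

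Genes were named by rule: called members, the 8 largest differences in each direction without overlap, the 5 highest levels, the 3 smallest p per class, annotations of known function and, per list, called genes and the 2 smallest p. Others (Os01g0298400, Os12g0564100, Os08g0151300, Os08g0346400, Os02g0695200, Os09g0401000, Os11g0182500 and neighbours) were chosen after their values were seen. The members too low to be tested whose libraries did not overlap were also listed. Classes follow annotation words, because the planned protein and promoter patterns had no sequences to run on. Alternatives changed the scale, pseudocount, filter, variance model, transcript choice, call rule, replicate block and each library in turn.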

Additional observations from a re-analysis of the deposited data

How the results depend on the processing

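Over 13 alternatives, 235 of 242 values of the 19 MYB genes compared kept their side of the threshold. Of these genes only Os08g0496700 was called in the fit as reported, so most of the values kept are of genes that stayed uncalled. Directions did not change, but several alternatives alter only the test and leave the log2 difference as it is. Most of these genes were named for large differences. Os08g0496700 was no longer called with no filter (adjusted p = 0.0591, limma), with each transcript's own spread (0.252), with the replicate number as a block (0.0877) or without either NT library, and the count of MYB members called higher was then 0 in place of 1. With FPKM summed per gene 1 member was called lower. The median log2 difference of the members ran from 0.04 to 0.06. The replicate block called 17 transcripts higher and 8 lower over the whole table, in place of 197 and 256. The deviations of same-numbered libraries had a correlation of -0.0258 over all tested transcripts. A value over the whole table cannot show whether same-numbered libraries share a shift in a part of the transcripts, so pairing was not settled. With each library left out in turn, phenylpropanoid and lignin genes called higher numbered 0 to 2 and called lower 0 to 1, bHLH genes called lower numbered 0, flavonoid genes called higher 0 to 4, alpha-amylase genes called higher 0 to 1 and cellulose synthase genes called lower 0 to 1. With no filter, 1 phenylpropanoid gene was called higher and 0 bHLH genes lower. Over all transcripts, leaving out NT replicate 2 left no calls, with 8.17% of transcripts at an unadjusted p under 0.05. With 2 libraries a group, 10% of changes of 2-fold were recovered on simulated data and smaller ones were not simulated, so a member that was not called may still differ.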
